A study of Mus musculus with 16 samples.

Results

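The genes described here are 31 genes of sterol and fatty acid synthesis in mouse embryonic fibroblasts, connective tissue cells grown from embryos. They were chosen by symbol from the 23100 genes of the deposited count table, as enzymes and regulators of the pathway that the sterol regulatory element binding proteins (SREBPs) control, and all 31 were found. Earlier results of these data were known when the choice was made. The cells were of the C57BL/6 strain and were grown in DMEM with fetal bovine serum. Wildtype cells are labelled Zac+/+ and mutant cells Zac+/-, where Zac1 is the imprinted zinc finger transcription factor gene now called Plagl1. Each genotype had 2 cell lines, and each line was sequenced at day 2 in vitro, called proliferative, and at days 8, 10 and 12, called quiescent, which gave 16 libraries. The replicate 1 lines of both genotypes carry the letter I and the replicate 2 lines the letter L. The titles of the mutant samples carry the code KOpat, which the labels do not spell out. What the letters mark and whether medium was renewed before the late harvests is not stated there either.

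SREBPs are transcription factors made as membrane proteins of the endoplasmic reticulum. Scap carries them to the Golgi, where proteases release their active part, and when sterols are plentiful Insig1 and Insig2 hold Scap back. Srebf2 mainly drives genes of cholesterol synthesis and Srebf1 genes of fatty acid synthesis. Cells in culture can make these lipids or take them up from serum, and growing cells need them for new membranes.

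The SREBPs bind short promoter sequences, so the promoters of a few members are printed here to show what such a site looks like in this group. RefSeq promoters (build GRCm38.p6, 250 bases before to 50 after the transcript start) matched 24 of the 31 members. The core of the sterol regulatory element was searched as TCACNCCAC on both strands, and sites of different motifs were counted separately and may share bases. An exact match was present in 1 of the 24 members (Hmgcs1) and in 1.44% of all 27025 genes. A match with at most 1 other letter, a search added after the exact one, was present in 10 of the 24 members (41.7%) and in 26.7% of all genes. The 5 promoters below are from members with such matches, which are in capitals, and a site on the opposite strand is printed as its complement. They are Hmgcs1 at chr13:119690101-119690400 (plus strand), Insig1 at chr5:28071162-28071461 (plus), Acat2 at chr17:12960676-12960975 (minus), Hsd17b7 at chr1:169969156-169969455 (minus) and Srebf2 at chr15:82147019-82147318 (plus), each printed 5′ to 3′ along the gene's own strand.
Hmgcs1: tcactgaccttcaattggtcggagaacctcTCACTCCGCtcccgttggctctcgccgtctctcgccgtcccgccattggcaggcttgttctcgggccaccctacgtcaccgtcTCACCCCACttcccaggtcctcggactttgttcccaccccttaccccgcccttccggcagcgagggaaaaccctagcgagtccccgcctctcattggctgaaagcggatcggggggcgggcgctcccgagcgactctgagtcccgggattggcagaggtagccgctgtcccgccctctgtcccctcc
Insig1: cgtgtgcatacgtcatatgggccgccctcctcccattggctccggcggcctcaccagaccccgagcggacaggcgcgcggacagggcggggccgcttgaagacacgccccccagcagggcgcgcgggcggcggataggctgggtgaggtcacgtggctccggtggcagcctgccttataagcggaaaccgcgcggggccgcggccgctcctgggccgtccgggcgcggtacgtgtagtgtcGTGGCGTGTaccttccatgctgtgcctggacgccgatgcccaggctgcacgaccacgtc
Acat2: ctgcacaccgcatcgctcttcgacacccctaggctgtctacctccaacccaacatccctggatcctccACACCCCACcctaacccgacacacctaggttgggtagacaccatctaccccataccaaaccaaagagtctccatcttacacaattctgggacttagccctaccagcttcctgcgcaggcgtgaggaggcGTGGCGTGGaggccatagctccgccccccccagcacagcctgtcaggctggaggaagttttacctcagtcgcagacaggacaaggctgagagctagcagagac
Hsd17b7: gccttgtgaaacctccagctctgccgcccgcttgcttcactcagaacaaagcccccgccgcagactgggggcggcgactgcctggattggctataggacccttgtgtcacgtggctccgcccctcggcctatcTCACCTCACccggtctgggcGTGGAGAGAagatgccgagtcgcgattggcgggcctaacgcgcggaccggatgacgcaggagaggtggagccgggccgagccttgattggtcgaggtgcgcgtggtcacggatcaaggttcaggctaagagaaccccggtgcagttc
Srebf2: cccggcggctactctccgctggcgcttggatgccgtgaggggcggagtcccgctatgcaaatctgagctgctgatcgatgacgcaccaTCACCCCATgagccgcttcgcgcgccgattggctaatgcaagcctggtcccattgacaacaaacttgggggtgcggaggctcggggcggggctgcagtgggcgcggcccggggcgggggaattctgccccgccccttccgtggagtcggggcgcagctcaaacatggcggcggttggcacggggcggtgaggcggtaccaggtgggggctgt
The exact match of Hmgcs1 (TCACCCCAC) lay 137 to 129 bases before the start. The site of Insig1 read ACACGCCAC on the opposite strand, 9 to 1 bases before the start. The other members with a match of this kind were Insig2, Cyp51, Dhcr7, Acly and Nsdhl. Idi1 and Fasn, whose levels are given below among the largest falls, had none in this window. The CCAAT box, searched as CCAAT on both strands, was present in 19 of the 24 members (79.2%) and in 41.1% of all genes. The GC box GGGCGG was present in 20 of the 24 members (83.3%) and in 38.2% of all genes. These matches are descriptions of the letters in the window and not measured binding.

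As a check of the labels, Plagl1 stood at 44.7, 37.4, 9.05 and 7.56 CPM at day 2 and 201, 163, 47.4 and 51.5 CPM at quiescence in wildtype replicates 1 and 2 and mutant replicates 1 and 2, in that order. CPM are counts scaled to library size with TMM, and the values of a line at quiescence are from the summed counts of its 3 late harvests. Mutant lines lay below wildtype lines in both states. The total count was 28079241 to 61039793 per library. Summed over 10 fibroblast markers the level was 21218 to 23858 CPM at day 2 and 46706 to 66702 CPM in the quiescent libraries, and 12 proliferation markers went from 1852 to 2157 CPM at day 2 to 316 to 626 CPM. Of 8 adipocyte markers, 6 (Adipoq, Plin1, Cidec, Lep, Cfd and Retn) were at or under 0.261 CPM in every library, and all 8 summed to 4.67 to 11.8 CPM. The 7 hepatocyte markers summed to 0.451 to 1.43 CPM. The 5 endothelial markers went from 13.7 to 19.3 CPM at day 2 to 1.42 to 3.48 CPM, and the 6 epithelial markers from 10.6 to 15.03 CPM to 1.69 to 4.61 CPM. The 8 macrophage and blood markers summed to 12.5 to 91.5 CPM at day 2 and 12.0 to 370 CPM in the quiescent libraries, highest in mutant replicate 1 and next in wildtype replicate 2.

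Most of the genes were lower in quiescent than in proliferating cells. In wildtype lines 20 of the 30 members that could be tested fell, 1 rose (Tm7sf2) and 9 did not pass, where a gene is called at an edgeR adjusted p under 0.05. Of all 15740 genes tested, 23.7% were called lower and 23.9% higher in this comparison. In mutant lines 19 members fell and 0 rose, against 21% of all genes called lower and 21.1% higher. The median log2 change of the 30 members was -0.47 in both genotypes, and that of all genes was 0.05. At day 2 all 4 lines lay above every one of the 12 quiescent libraries for 17 of the 30 members. The share of all genes with this pattern was not counted. In bulk samples such as these, fewer cells of a type and less RNA per cell cannot be told apart. The proliferation, endothelial and epithelial markers above were also lower at quiescence, and their part in the members' values was not tested.

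**Figure D1:**
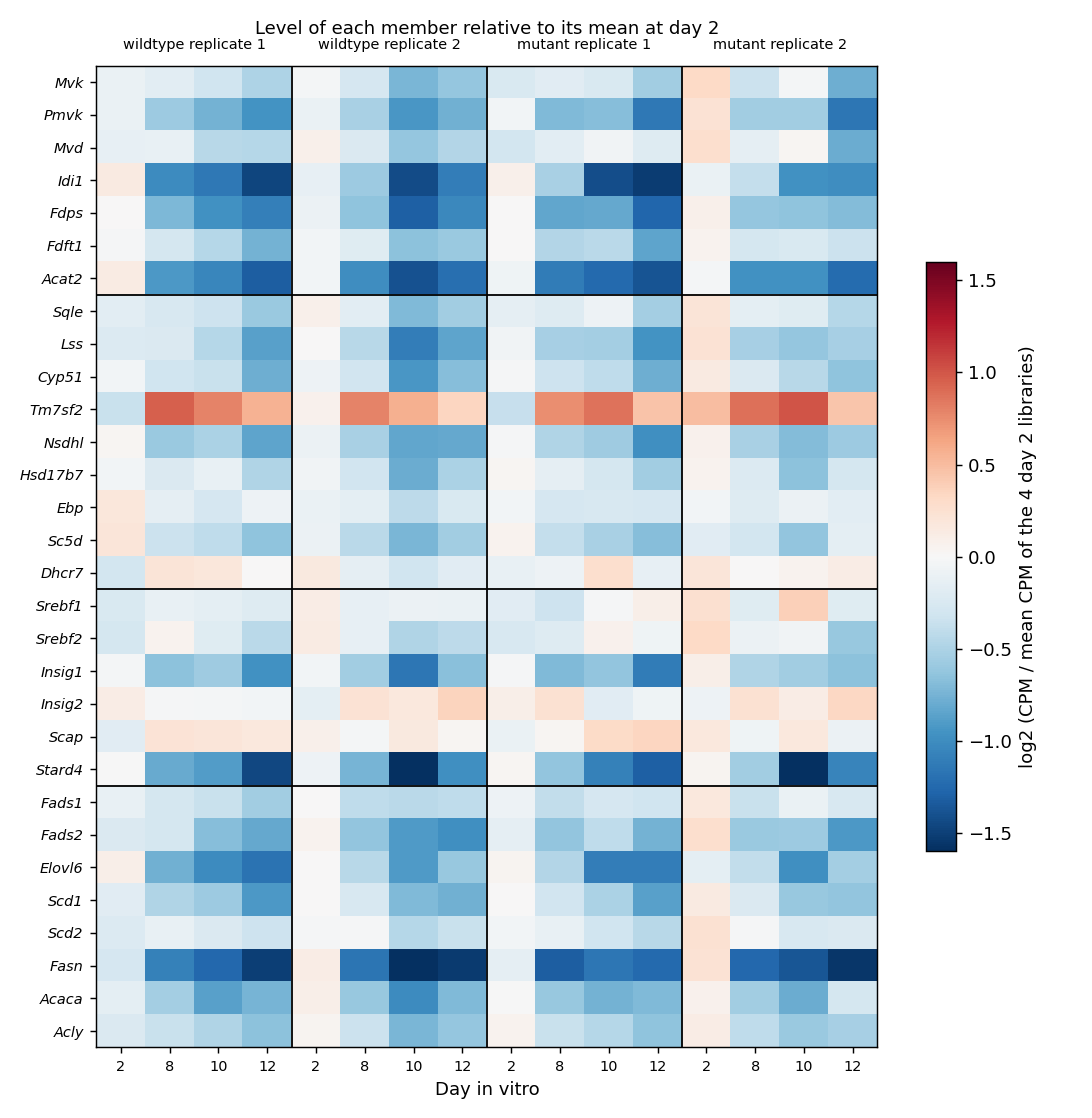
Level of each of the 30 tested members in each of the 16 libraries, as log2 of its CPM over its mean of the 4 day 2 libraries (blue lower, red higher). Columns are days 2, 8, 10 and 12 of each line, and horizontal lines separate the role groups from mevalonate to squalene, squalene to cholesterol, regulators and transport, and fatty acids. Most rows turn blue after day 2, and Tm7sf2 turns red.

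The first steps of the sterol pathway build mevalonate and join its isoprene units into squalene. Of 7 tested members of this group 5 fell in each genotype, and no member rose. Hmgcs1, the synthase that makes the precursor of mevalonate, was listed at 0 in 15 of the 16 libraries and had 2 counts in wildtype replicate 2 at day 2, so it was not tested. A count of 0 allows up to 0.0497 to 0.110 CPM in these libraries (3 counts, counting error only). The GENCODE gene models used here are of build GRCm38, another build than that of the counts. In them 557 of the 3482 exon bases of Hmgcs1 are shared with the antisense gene Gm48342. Most of its exon bases lie outside this overlap, and the part of the overlap in its count was not tested. Whether its transcripts were low in these cells or its reads were lost in the counting could not be told from the table.

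Acat2, the thiolase that joins acetyl units at the start, showed the largest fall of this group in both genotypes. It stood at 54.8, 49.1, 48.1 and 49.5 CPM at day 2 in wildtype replicates 1 and 2 and mutant replicates 1 and 2, and at 23.6, 21.9, 21.6 and 24.7 CPM at quiescence. Every quiescent value was under every day 2 value, and the log2 change was -1.19 (SE 0.12, adjusted p = 3.60e-05) in wildtype and -1.08 (SE 0.12, adjusted p = 8.58e-05) in mutant cells (edgeR). Idi1, the isomerase that makes the reactive isoprene unit, went from 191, 159, 185 and 162 CPM to 75.7, 86.3, 86.6 and 105 CPM in the same order of lines. Its log2 change was -1.11 (SE 0.14, adjusted p = 1.56e-04) in wildtype and -0.85 (SE 0.14, adjusted p = 9.69e-04) in mutant cells, or 2.16-fold and 1.81-fold lower. The replicate 1 lines were highest at day 2 and fell the furthest. Of its exon bases 10.7% are shared with an opposite-strand model. Fdps, which makes farnesyl pyrophosphate, went from 224, 209.7, 225 and 238 CPM to 118, 113, 119 and 144 CPM. Its 4 lines were within a narrow range in each state except for mutant replicate 2 at quiescence, and its log2 change was -0.91 (SE 0.11, adjusted p = 1.54e-04) in wildtype and -0.82 (SE 0.11, adjusted p = 3.74e-04) in mutant cells. In the GENCODE models 77.4% of its exon bases are shared with the same-strand model Gm43738, which the count table does not list.

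Pmvk, the second kinase of mevalonate, stood at 25.6, 25.8, 26.9 and 32.7 CPM at day 2 and 16.3, 16.6, 16.2 and 17.3 CPM at quiescence. Its log2 change was -0.64 (SE 0.13, adjusted p = 0.00241) in wildtype and -0.84 (SE 0.13, adjusted p = 6.25e-04) in mutant cells. Fdft1, squalene synthase, went from 96.6, 95.5, 99.5 and 104 CPM to 69.8, 70.7, 68.7 and 81.2 CPM, with a log2 change of -0.45 (SE 0.11, adjusted p = 0.00630) in wildtype and -0.44 (SE 0.11, adjusted p = 0.00856) in mutant cells. It shares 20.9% of its exon bases with Ctsb on the opposite strand, and the strand setting of the counting was not given. Mvk, the first mevalonate kinase, and Mvd, the decarboxylase that follows, did not pass, although each was under its day 2 value in both wildtype lines. Mvk stood at 31.5, 33.6, 28.8 and 42.7 CPM at day 2 and 27.2, 23.5, 28.2 and 27.6 CPM at quiescence, and Mvd at 29.1, 33.9, 26.1 and 38.8 CPM and 25.4, 23.5, 29.2 and 27.6 CPM. Mvk had log2 values of -0.36 (SE 0.17, adjusted p = 0.111) in wildtype and -0.36 (SE 0.17, adjusted p = 0.118) in mutant cells, and Mvd of -0.37 (SE 0.17, adjusted p = 0.109) in wildtype and -0.20 (SE 0.17, adjusted p = 0.389) in mutant cells. Mvd went from 26.1 to 29.2 CPM in mutant replicate 1, and was lower at quiescence in the other 3 lines. In wildtype cells both Mvk and Mvd passed when mutant replicate 1 (adjusted p = 0.0271 for each) or mutant replicate 2 (0.0371 and 0.0369) was left out of the shared fit, and with the wildtype libraries alone (0.0387 and 0.0383). With the late harvests not summed, Mvk passed in wildtype (adjusted p = 0.0481) and mutant cells (0.0271). In mutant cells Mvk passed without mutant replicate 1 (adjusted p = 0.0166).

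Leaving out a line leaves its group with 1 line, whose spread is then taken from the other groups. Without wildtype replicate 1, Pmvk (log2 -0.65, adjusted p = 0.0572) and Fdft1 (log2 -0.44, adjusted p = 0.105) no longer passed in wildtype cells, with log2 values near those of both lines. Fdft1 also missed the threshold without wildtype replicate 2 (log2 -0.50, adjusted p = 0.0727) and, in mutant cells, without mutant replicate 1 (log2 -0.38, adjusted p = 0.0783).

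From squalene on, the enzymes oxidise and close the ring and then trim it to cholesterol. Of 9 members 6 fell and 1 rose in wildtype cells, and 5 fell in mutant cells. Nsdhl, a sterol dehydrogenase of the demethylation step, fell the most in wildtype. It went from 57.6, 53.0, 55.9 and 59.9 CPM at day 2 to 35.9, 34.3, 37.1 and 37.3 CPM at quiescence, with a log2 change of -0.66 (SE 0.10, adjusted p = 6.06e-04) in wildtype and -0.64 (SE 0.10, adjusted p = 8.94e-04) in mutant cells. Lss, which closes the ring to lanosterol, went from 50.5, 59.7, 56.8 and 69.9 CPM to 41.5, 34.3, 38.6 and 40.1 CPM. Both replicate 2 lines had more Lss at day 2 than the replicate 1 line of their genotype, and the log2 change was -0.54 (SE 0.14, adjusted p = 0.0116) in wildtype and -0.69 (SE 0.14, adjusted p = 0.00392) in mutant cells. Cyp51, the lanosterol demethylase, went from 163, 160.4, 168 and 188 CPM to 121, 109, 125 and 128 CPM. Its log2 change was -0.49 (SE 0.10, adjusted p = 0.00341) in wildtype and -0.49 (SE 0.10, adjusted p = 0.00397) in mutant cells, and no quiescent value reached a day 2 value.

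Sc5d, a desaturase near the end of the pathway, went from 88.6, 73.2, 81.2 and 69.5 CPM to 56.6, 52.4, 55.4 and 60.4 CPM. The fall was smallest in mutant replicate 2, and the log2 change was -0.57 (SE 0.13, adjusted p = 0.00485) in wildtype and -0.38 (SE 0.13, adjusted p = 0.0377) in mutant cells. Hsd17b7, the ketoreductase of the demethylation step, went from 65.7, 65.2, 69.8 and 71.4 CPM to 55.9, 46.9, 56.1 and 52.2 CPM, with a log2 change of -0.35 (SE 0.11, adjusted p = 0.0275) in wildtype and -0.38 (SE 0.11, adjusted p = 0.0206) in mutant cells. Sqle, the squalene epoxidase, went from 86.3, 103, 88.0 and 113 CPM to 73.9, 70.1, 83.9 and 82.6 CPM, and its log2 change was -0.40 (SE 0.14, adjusted p = 0.0352) in wildtype and -0.27 (SE 0.13, adjusted p = 0.135) in mutant cells, so the mutant value did not pass. In mutant replicate 1 it moved from 88.0 to 83.9 CPM.

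Tm7sf2, a sterol C14 reductase, went the other way. It stood at 4.10, 5.55, 4.09 and 7.47 CPM at day 2 and 9.05, 7.85, 8.83 and 9.45 CPM at quiescence, higher at quiescence in all 4 lines. Its log2 change was 0.80 (SE 0.27, adjusted p = 0.0342) in wildtype and 0.65 (SE 0.27, adjusted p = 0.0810) in mutant cells, a call in wildtype only, and the difference between genotypes did not pass (adjusted p = 1.00). The wildtype call was lost without either wildtype line. Leaving out replicate 1 gave a log2 value of 0.49 (adjusted p = 0.407), and leaving out replicate 2 gave 1.11 (adjusted p = 0.0801). In mutant cells it passed without mutant replicate 2 (log2 1.12, adjusted p = 0.0187) and with the line as a replicate block (log2 0.70, adjusted p = 0.0340). Its exons share 14 bases with Vps51. Ebp, the sterol isomerase, stood at 34.8, 28.7, 29.8 and 30.1 CPM at day 2 and 27.7, 25.3, 25.7 and 27.7 CPM at quiescence, with log2 values of -0.26 (SE 0.13, adjusted p = 0.121) in wildtype and -0.17 (SE 0.13, adjusted p = 0.319) in mutant cells. Dhcr7, the last reductase of one branch, had 0.01 (SE 0.19, adjusted p = 0.980) in wildtype and -0.0013 (SE 0.19, adjusted p = 0.996) in mutant cells. Dhcr7 was higher at quiescence in both replicate 1 lines (16.7 to 22.3 CPM in wildtype and 18.9 to 21.3 in mutant) and lower in both replicate 2 lines (22.9 to 17.5 and 23.7 to 21.3 CPM).

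With 1 line left in a group several of these calls were lost, some of them with a log2 value farther from 0 than that from both lines. Without wildtype replicate 1 this held for Sqle (log2 -0.56, adjusted p = 0.0702) and Hsd17b7 (log2 -0.49, adjusted p = 0.0701), and Sc5d was lost at a value nearer 0 (log2 -0.49, adjusted p = 0.0854). Without wildtype replicate 2 the values were nearer 0 for Sqle (log2 -0.25, adjusted p = 0.394), Lss (log2 -0.31, adjusted p = 0.289) and Hsd17b7 (log2 -0.26, adjusted p = 0.303), and close to that from both lines for Cyp51 (log2 -0.46, adjusted p = 0.0790). In mutant cells Sc5d was lost without mutant replicate 1 (log2 -0.23, adjusted p = 0.352). Without mutant replicate 2 Lss (log2 -0.54, adjusted p = 0.0551), Cyp51 (log2 -0.42, adjusted p = 0.0697) and Hsd17b7 (log2 -0.30, adjusted p = 0.214) were lost. With the late harvests not summed, the wildtype call of Hsd17b7 was lost (adjusted p = 0.0604), and with the mutant libraries fitted alone so was the mutant call of Sc5d (0.0581). Not summing the late harvests brought a mutant call of Sqle (adjusted p = 0.0350) and a wildtype call of Ebp (0.0389).

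**Figure D2:**
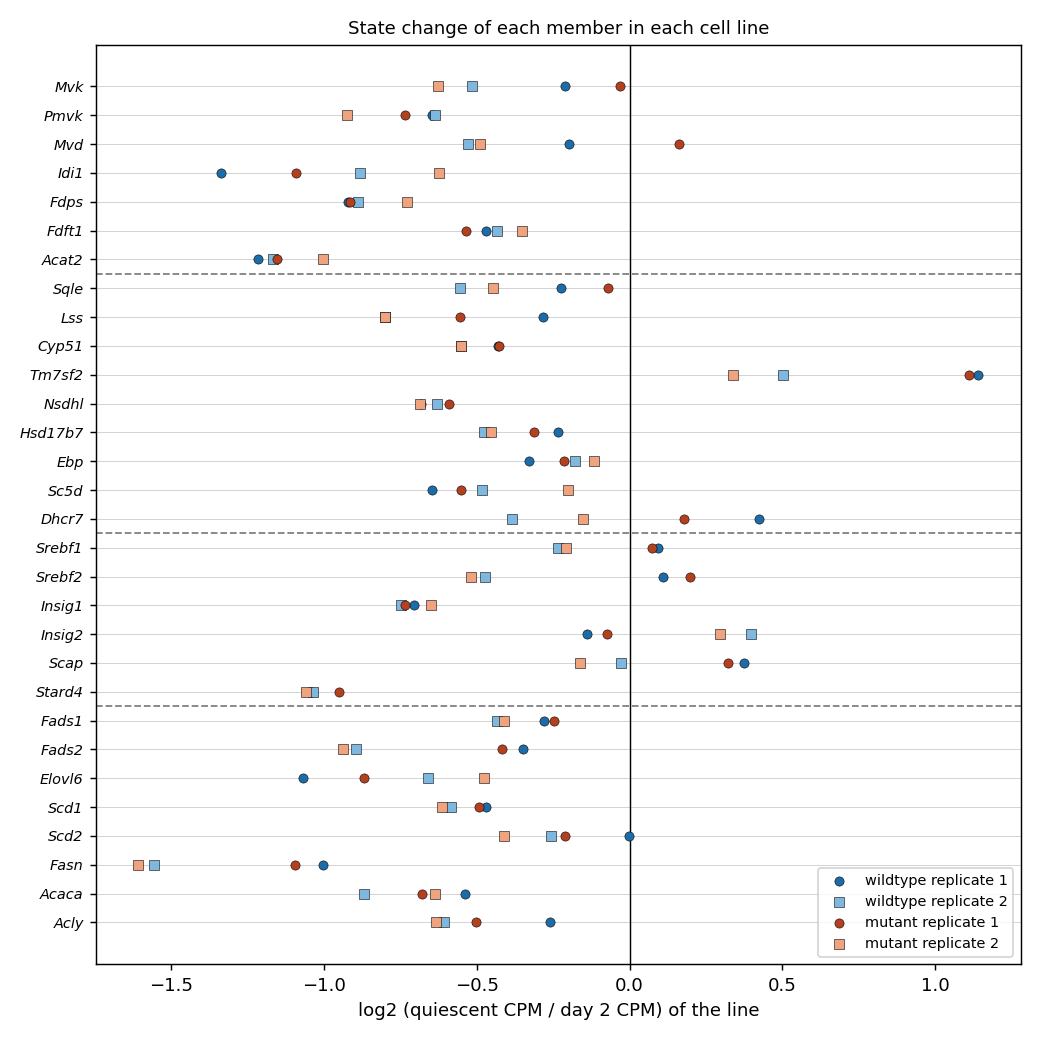
Log2 of quiescent over day 2 CPM of each tested member in each of the 4 lines (circles replicate 1, squares replicate 2, blue wildtype, red mutant). Stard4, Acat2 and Insig1 lie close together in all lines, Fasn runs from -1.003 to -1.61, and Srebf2 is above 0 in both replicate 1 lines and below 0 in both replicate 2 lines.

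Among the 6 regulators and transport genes 2 fell in each genotype and 0 rose. Stard4, a carrier of cholesterol between membranes, went from 50.9, 48.7, 52.2 and 53.4 CPM at day 2 to 24.8, 23.8, 27.0 and 25.6 CPM at quiescence. The 4 lines lay close together in each state, and the log2 change was -1.04 (SE 0.10, adjusted p = 3.54e-05) in wildtype and -1.004 (SE 0.10, adjusted p = 5.47e-05) in mutant cells. Insig1, which holds Scap in the endoplasmic reticulum and is itself an SREBP target, went from 101, 100.2, 102 and 111 CPM to 61.8, 59.7, 61.3 and 70.5 CPM. Its log2 change was -0.73 (SE 0.11, adjusted p = 3.77e-04) in wildtype and -0.69 (SE 0.11, adjusted p = 6.45e-04) in mutant cells, or 1.65-fold and 1.61-fold lower. Its relative Insig2 stood at 45.0, 37.6, 44.6 and 39.6 CPM and 40.8, 49.5, 42.4 and 48.5 CPM, and its log2 value was 0.13 (SE 0.14, adjusted p = 0.482) in wildtype and 0.11 (SE 0.14, adjusted p = 0.556) in mutant cells.

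The SREBP genes themselves did not pass. Srebf1 stood at 55.2, 71.6, 58.3 and 79.0 CPM at day 2 and 58.8, 60.8, 61.4 and 68.4 CPM at quiescence, with log2 values of -0.09 (SE 0.16, adjusted p = 0.700) in wildtype and -0.08 (SE 0.16, adjusted p = 0.709) in mutant cells. Srebf2 stood at 108, 144, 109.9 and 166 CPM and 116, 104, 126 and 116 CPM, with log2 values of -0.20 (SE 0.20, adjusted p = 0.447) in wildtype and -0.19 (SE 0.20, adjusted p = 0.467) in mutant cells. At day 2 both replicate 2 lines were above both replicate 1 lines for Srebf1 and Srebf2, and at quiescence Srebf2 was highest in mutant replicate 1. Scap, the escort protein, which shares 18.6% of its exon bases with an opposite-strand model, stood at 49.0, 59.1, 51.8 and 63.2 CPM and 63.5, 57.9, 64.7 and 56.4 CPM, with log2 values of 0.17 (SE 0.14, adjusted p = 0.356) in wildtype and 0.07 (SE 0.14, adjusted p = 0.694) in mutant cells. The groups overlapped, and the sign for Srebf1, Srebf2, Insig2 and Scap depended on which line was left out.

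Levels were also divided by the length of all exons in the GENCODE models. The annotation behind the counts was not given, so this scale compares genes only roughly. On it Insig1 lay at 37.1 to 41.1 CPM per kb at day 2 and 22.1 to 26.1 at quiescence over the 4 lines. Insig2 lay at 12.7 to 15.2 and 13.8 to 16.8, so the ranges of the pair were nearer at quiescence and did not meet. Srebf2 lay at 21.2 to 32.6 and 20.4 to 24.8 CPM per kb, above Srebf1 with 12.8 to 18.4 and 13.7 to 15.9.

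Fatty acid synthesis turns citrate into acetyl and malonyl units, joins them into palmitate, and then lengthens and desaturates it. Of 8 members 7 fell in each genotype, and Scd2 did not pass. Fasn, fatty acid synthase, showed the largest fall of all 30 members, in both genotypes. It stood at 458, 602, 503 and 655 CPM at day 2 and 228, 205, 235 and 215 CPM at quiescence, and the replicate 2 lines were highest at day 2 and lowest at quiescence. The log2 change was -1.29 (SE 0.17, adjusted p = 1.71e-04) in wildtype and -1.36 (SE 0.17, adjusted p = 1.60e-04) in mutant cells, or 2.45-fold and 2.57-fold lower. Acaca, which makes malonyl units, went from 127, 152, 142 and 149.7 CPM to 87.4, 82.9, 88.6 and 96.4 CPM, with a log2 change of -0.71 (SE 0.11, adjusted p = 6.56e-04) in wildtype and -0.66 (SE 0.11, adjusted p = 0.00128) in mutant cells. Acly, which splits citrate, went from 331, 403, 406 and 428 CPM to 277, 265, 286 and 275 CPM, with a log2 change of -0.44 (SE 0.12, adjusted p = 0.0110) in wildtype and -0.57 (SE 0.12, adjusted p = 0.00332) in mutant cells. The fall of Acly was smallest in wildtype replicate 1.

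Elovl6, the elongase of palmitate, went from 99.4, 94.4, 97.2 and 84.6 CPM to 47.4, 59.8, 53.2 and 60.8 CPM, and its log2 change was -0.85 (SE 0.14, adjusted p = 6.40e-04) in wildtype and -0.67 (SE 0.14, adjusted p = 0.00315) in mutant cells. Its lines did not overlap between states, and the replicate 1 lines had the lower quiescent value in each genotype. Fads2 and Fads1 desaturate polyunsaturated fatty acids. Fads2 went from 69.0, 84.6, 73.4 and 98.5 CPM to 54.2, 45.5, 54.9 and 51.3 CPM, with a log2 change of -0.63 (SE 0.16, adjusted p = 0.0100) in wildtype and -0.70 (SE 0.16, adjusted p = 0.00682) in mutant cells. Fads1 went from 127, 139, 131 and 156 CPM to 104, 103, 109.9 and 117 CPM, with the smallest called change of the group at -0.36 (SE 0.11, adjusted p = 0.0255) in wildtype and -0.34 (SE 0.11, adjusted p = 0.0377) in mutant cells. The mutant call of Fads1 was also lost with the line as a replicate block (adjusted p = 0.0587) and with the mutant libraries fitted alone (0.0815).

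Scd1 and Scd2 are desaturases that make oleate. Scd1 went from 181, 208, 207 and 229 CPM to 130.3, 139, 147 and 149.9 CPM, with a log2 change of -0.53 (SE 0.11, adjusted p = 0.00302) in wildtype and -0.56 (SE 0.11, adjusted p = 0.00281) in mutant cells. Scd2 was the most abundant member, at 755, 872, 856 and 1056 CPM at day 2 and 754, 729, 739 and 794 CPM at quiescence, and its log2 value was -0.13 (SE 0.13, adjusted p = 0.425) in wildtype and -0.32 (SE 0.13, adjusted p = 0.0726) in mutant cells. The mutant value passed in DESeq2 (adjusted p = 0.0407) and with the late harvests not summed (edgeR adjusted p = 0.0162). Per kilobase of exon Scd2 lay at 138 to 194 CPM at day 2 and 134 to 146 at quiescence, and Scd1 at 37.4 to 47.5 and 26.97 to 31.03. In wildtype replicate 1 Scd2 was at 755 CPM at day 2 and 754 at quiescence, while Scd1 in that line went from 181 to 130.3 CPM.

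Without wildtype replicate 2, which leaves 1 wildtype line, Fads1 (log2 -0.31, adjusted p = 0.252), Fads2 (log2 -0.38, adjusted p = 0.248), Scd1 (log2 -0.50, adjusted p = 0.0600) and Acly (log2 -0.29, adjusted p = 0.244) no longer passed in wildtype cells. Fads1 also missed the threshold without wildtype replicate 1, at a log2 value farther from 0 (log2 -0.44, adjusted p = 0.112). In mutant cells the same genes were lost without mutant replicate 2, Fads1 with log2 -0.24, adjusted p = 0.294, Fads2 with log2 -0.41, adjusted p = 0.143, Scd1 with log2 -0.48, adjusted p = 0.0525 and Acly with log2 -0.49, adjusted p = 0.0631. Without mutant replicate 1 Elovl6 (log2 -0.50, adjusted p = 0.0580) and Fads1 (log2 -0.44, adjusted p = 0.0522) were lost, and without wildtype replicate 1 or 2 Fads1 was (adjusted p = 0.0614 and 0.0621). Calls over all genes dropped in the same fits. In wildtype cells 11 members and 14.7% of all genes were called lower without wildtype replicate 2, and 14 members and 13.7% of all genes without replicate 1. In mutant cells the numbers were 12 members and 14.3% of all genes without mutant replicate 2, and 16 members and 16.1% of all genes without mutant replicate 1. The calls of 8 members (Idi1, Fdps, Nsdhl, Insig1, Stard4, Acat2, Fasn and Acaca) were kept in both genotypes under each of the 11 alternatives run. How many of all genes kept their calls in this way was not counted, so this number cannot be read as particular to the members.

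**Figure D3:**
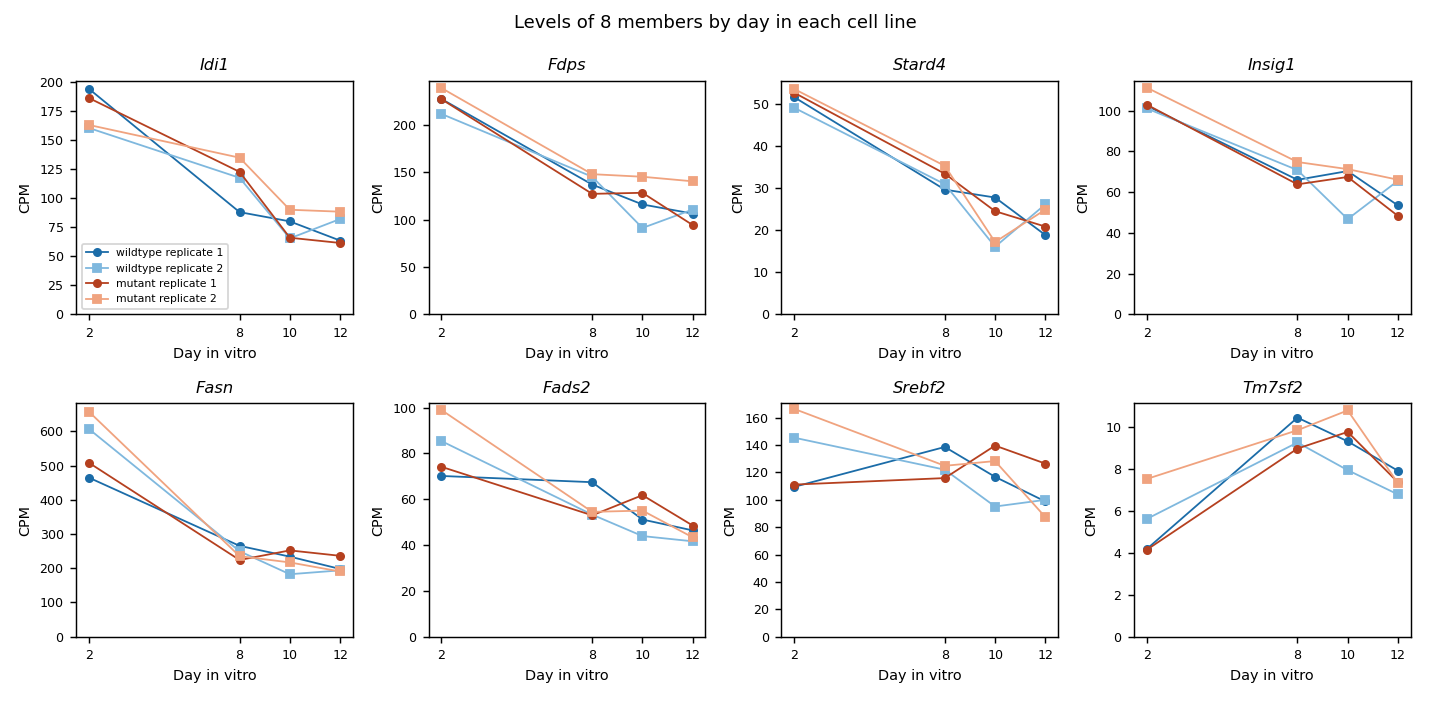
CPM of 8 members by day in vitro in each of the 4 lines (circles replicate 1, squares replicate 2, blue wildtype, red mutant), with axes from 0. Idi1, Fdps, Stard4, Insig1 and Fasn are highest at day 2 in every line, and Tm7sf2 is lowest at day 2 in every line but mutant replicate 2.

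The lower levels were present by the first late harvest. At day 8, 21 of the 30 members were under their day 2 value in all 4 lines, and Tm7sf2 in none. Summed over the members, day 8 stood at 83.2%, 77.1%, 76.4% and 70.1% of day 2 in wildtype replicates 1 and 2 and mutant replicates 1 and 2, and day 12 at 67.0%, 63.1%, 63.6% and 61.2%. Among the late days, 20 members were lower at day 12 than at day 8 in all 4 lines. They included Idi1, Fdps, Stard4, Insig1 and Acat2. Neither count was made over all genes, and day 8 was not tested against day 2.

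Between day 8 and day 10, averaged over genotypes, 26 of 30 members had a negative log2 value (median -0.14), against 48.4% of all genes. The lines were uneven in this step. Day 10 was under day 8 for 27 and 28 of the 30 members in wildtype replicates 1 and 2. In mutant replicates 1 and 2 it was for 15 and 19, and these counts were not made over all genes. In edgeR 0 members passed, and 0.0648% of all 15439 genes were called. At an unadjusted p under 0.05 there were 8 members and 10.4% of all genes, and DESeq2 called 3 members (Idi1, Stard4 and Elovl6) and 1.68% of all genes. Idi1 stood at 88.0, 118, 123 and 135 CPM at day 8 and 80.0, 65.4, 65.9 and 90.1 CPM at day 10 in the same order of lines, a log2 difference of -0.61 (SE 0.15, adjusted p = 0.165). Stard4 stood at 29.7, 30.97, 33.5 and 35.3 CPM and 27.8, 16.1, 24.5 and 17.2 CPM, with -0.60 (SE 0.16, adjusted p = 0.219). Its lowest values at day 10 were those of the 2 replicate 2 lines. Elovl6 had a log2 difference of -0.48 (SE 0.14, adjusted p = 0.232) and Scd1 of -0.28 (SE 0.09, adjusted p = 0.269), and all 4 lines of both genes were lower at day 10.

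From day 10 to day 12 the log2 value was negative for 24 of 30 members (median -0.12) and for 49.9% of all genes, and 0 members passed in edgeR or DESeq2. An unadjusted p under 0.05 was found for 5 members and 12.3% of all genes. Of all genes 0.415% were called. The 4 members with the smallest p were Pmvk with -0.27 (SE 0.09, adjusted p = 0.239), Acaca with 0.25 (SE 0.09, adjusted p = 0.265), Scd1 with -0.20 (SE 0.09, adjusted p = 0.373) and Mvk with -0.29 (SE 0.13, adjusted p = 0.380). Acaca stood at 79.1, 71.5, 85.1 and 82.9 CPM at day 10 and 85.8, 87.9, 88.5 and 118 CPM at day 12, higher in all 4 lines. Mvk stood at 27.7, 20.8, 29.1 and 33.8 CPM and 24.4, 22.5, 23.5 and 20.1 CPM, and the largest drop was in mutant replicate 2. Members that were lower at day 12 in all 4 lines were Tm7sf2, Fads2 and Scd1. Without wildtype replicate 1, 17 members were negative between these days (median -0.02), and without mutant replicate 1, 19 were (median -0.07).

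Mutant lines were then set against wildtype lines in each state. No member passed in edgeR in either state, in the difference of the state change between genotypes, or in DESeq2, and 0 members had an unadjusted p under 0.05 in any of the 3 comparisons. Of all genes 0.00635% were called at day 2 and 0.00635% at quiescence, which was Plagl1 in each, and 0% for the difference. With 2 lines in each genotype, the smallest two-sided p of an exact permutation test is 0.333.

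Most differences were small and positive. At day 2, 25 of 30 members had a positive log2 value of mutant over wildtype (median 0.10), against 50.4% of all genes. At quiescence 29 of 30 did (median 0.09), against 54.8% of all genes. These values differed between lines. Within the letter I pair mutant was above wildtype for 20 of 30 members in each state (median 0.04 in both), and within the letter L pair for 27 at day 2 (median 0.14) and 28 at quiescence (median 0.18). Without mutant replicate 2, 17 of 30 members were positive at day 2 (median 0.01). By day the mutant mean was higher for 25 members at day 2, 13 at day 8, 25 at day 10 and 22 at day 12. Both mutant lines lay above both wildtype lines for 7, 4, 13 and 3 of the 30 members, and below for 0, 6, 0 and 1. The counts by letter pair and by day were not made over all genes, so they cannot be set against a share of all genes.

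The members with the smallest p at day 2 were Scd2 with a log2 value of 0.23 (SE 0.13, adjusted p = 1.00), Pmvk with 0.22 (SE 0.13, adjusted p = 1.00), Acly with 0.18 (SE 0.12, adjusted p = 1.00) and Scd1 with 0.17 (SE 0.11, adjusted p = 1.00). For Scd2 the day 2 values given above overlapped between genotypes, since wildtype replicate 2 lay above mutant replicate 1. At quiescence they were Idi1 with 0.25 (SE 0.14, adjusted p = 1.00), Fdps with 0.19 (SE 0.11, adjusted p = 1.00), Sqle with 0.21 (SE 0.13, adjusted p = 1.00) and Cyp51 with 0.14 (SE 0.10, adjusted p = 1.00). For each of these 4 both mutant sums lay above both wildtype sums. For Fdps the log2 ratio was 0.01 in the letter I pair and 0.34 in the letter L pair, and for Idi1 it was 0.20 and 0.29. For the difference of the state change the smallest p belonged to Idi1 with 0.26 (SE 0.20, adjusted p = 1.00), Pmvk with -0.20 (SE 0.18, adjusted p = 1.00), Sc5d with 0.19 (SE 0.18, adjusted p = 1.00) and Scd2 with -0.19 (SE 0.18, adjusted p = 1.00).

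**Figure D4:**
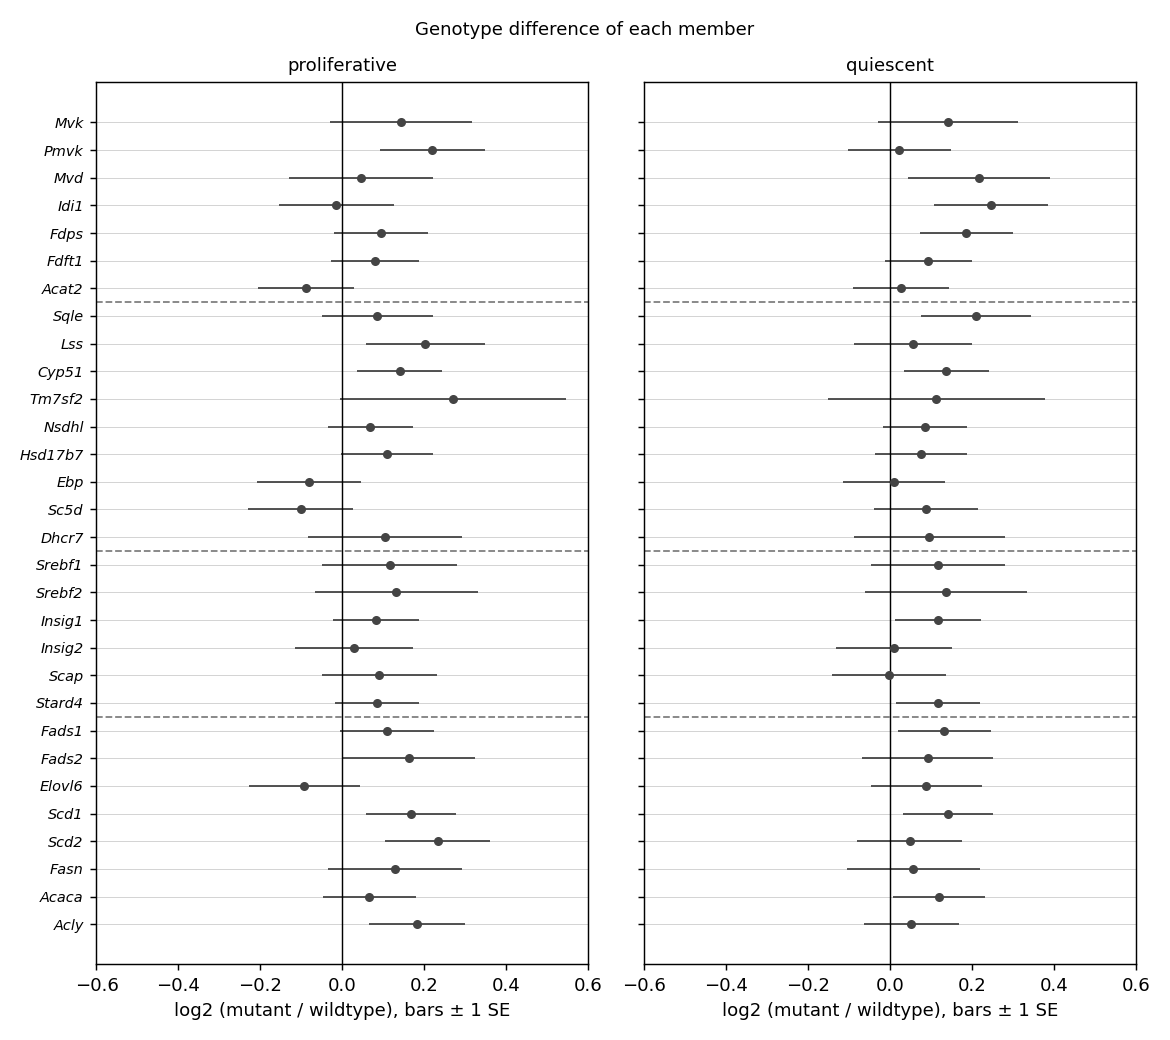
Log2 of mutant over wildtype for each tested member at day 2 (left) and at quiescence (right), with bars of 1 SE from the edgeR fit of 2 lines per genotype. Most points lie to the right of 0, at most 0.27 at day 2 and 0.25 at quiescence, and none passed the test.

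The replicate 2 lines were also set against the replicate 1 lines, as letter L minus letter I over both states. No member passed in edgeR or DESeq2, 1 had an unadjusted p under 0.05 (7.72% of all genes did), and 0.159% of all genes were called. The smallest p belonged to Srebf1 with a log2 value of 0.25 (SE 0.09, adjusted p = 0.447), Scd2 with 0.14 (SE 0.09, adjusted p = 0.800), Scd1 with 0.12 (SE 0.07, adjusted p = 0.801) and Tm7sf2 with 0.28 (SE 0.17, adjusted p = 0.806). The size of the state change was then compared between the letters, in a test that was added after the values of each line had been seen. Its p-values are therefore no independent support for a difference. In that test 4 of 30 members passed, and 2.88% of all genes. Srebf2 had a log2 ratio of quiescent over day 2 of 0.11 and 0.20 in wildtype and mutant replicate 1 and of -0.47 and -0.52 in wildtype and mutant replicate 2. For Fasn the ratio was -1.003 and -1.10 in the replicate 1 lines and -1.56 and -1.61 in the replicate 2 lines. For Fads2 it was -0.35 and -0.42 against -0.90 and -0.94. Idi1 went the other way, with -1.34 and -1.09 in the replicate 1 lines and -0.88 and -0.63 in the replicate 2 lines. The depth of the day 2 libraries moved with the letter (35487131 and 28079241 counts for I, 61039793 and 55936798 for L), and its part in these differences was not tested.

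Other genes of lipid metabolism were counted in 6 lists beside the members, with no set test. For comparison, 23.9% of all genes were called higher and 23.7% lower in wildtype cells. In mutant cells these shares were 21.1% and 21%, and the median log2 change of all genes was 0.05 in both genotypes. Of 17 genes of sterol uptake, storage and efflux 10 rose and 2 fell in wildtype cells, and 7 rose and 2 fell in mutant cells (median log2 0.50 and 0.40). Abca1, the cholesterol efflux pump, went from 19.7, 18.4, 24.0 and 20.4 CPM at day 2 to 102, 94.4, 94.5 and 74.8 CPM at quiescence in wildtype replicates 1 and 2 and mutant replicates 1 and 2. Its log2 change was 2.36 (SE 0.14, adjusted p = 2.31e-06) in wildtype and 1.94 (SE 0.14, adjusted p = 8.20e-06) in mutant cells, or 5.14-fold and 3.82-fold higher. Mylip, a ubiquitin ligase that degrades lipoprotein receptors, went from 9.52, 8.75, 10.2 and 13.5 CPM to 43.1, 43.9, 43.6 and 46.5 CPM (log2 2.25 and 1.91), and Vldlr, a lipoprotein receptor, from 18.2, 18.1, 21.1 and 19.7 CPM to 62.6, 65.1, 64.3 and 73.7 CPM (log2 1.81 and 1.76). The genes that fell, named after their values were seen, were Soat1, which esterifies cholesterol for storage (log2 -1.08 and -0.96), and Scarb1, a receptor for high-density lipoprotein (log2 -1.03 and -1.15). Macrophage and blood markers, given above for all lines, also differed between libraries, and their part in the values of Abca1 was not tested.

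Of 18 fatty acid oxidation genes 6 rose and 0 fell in each genotype (median log2 0.24 in wildtype and 0.25 in mutant). Among all genes, 23.9% were called higher in wildtype and 21.1% in mutant cells. Cpt1a, which lets fatty acids into mitochondria, went from 58.6, 65.2, 66.0 and 69.0 CPM to 127, 117, 116 and 111 CPM, with a log2 change of 0.97 (SE 0.10, adjusted p = 5.29e-05) in wildtype and 0.75 (SE 0.10, adjusted p = 3.48e-04) in mutant cells. Its relative Cpt1c (log2 0.65 and 0.51) and the dehydrogenase Acadm (log2 0.66 and 0.51) also rose in both genotypes.

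Genes that use isoprenoids made by the sterol pathway mostly fell or did not pass. Of 15 such genes 8 fell and 1 rose in each genotype (median log2 -0.30 and -0.34). Pdss1, which makes the side chain of ubiquinone, went from 7.79, 8.62, 5.90 and 6.27 CPM to 1.99, 1.48, 1.72 and 1.48 CPM, with a log2 change of -2.24 (SE 0.24, adjusted p = 4.90e-05) in wildtype and -1.93 (SE 0.23, adjusted p = 1.56e-04) in mutant cells. Rabggtb, a subunit of the enzyme that prenylates Rab proteins, had log2 changes of -0.86 and -0.60, and Coq2, which attaches the ubiquinone side chain, -0.64 and -0.61. Of 18 tested genes of other fatty acid synthesis, elongation and activation, 8 fell and 1 rose in wildtype, and 7 fell and 1 rose in mutant cells (median log2 -0.20 and -0.09). The acyl-CoA synthetases Acsl5 (log2 -1.03 and -0.90) and Acsl4 (log2 -1.21 and -1.17) and the elongation enzyme Hsd17b12 (log2 -0.97 and -0.73) fell in both genotypes.

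Among 13 genes of SREBP processing and sterol-regulated degradation 2 rose and 5 fell in wildtype, and 2 rose and 3 fell in mutant cells. Mbtps1, the protease that makes the first cut in SREBPs, went from 135, 152, 146 and 175 CPM to 225, 220.3, 225 and 224 CPM, with a log2 change of 0.63 (SE 0.12, adjusted p = 0.00153) in wildtype and 0.48 (SE 0.12, adjusted p = 0.00768) in mutant cells. Nploc4 and Vcp, which extract proteins from the endoplasmic reticulum for degradation, fell in both genotypes (log2 -0.59 and -0.55 for Nploc4, -0.44 and -0.37 for Vcp). Of 15 glycerolipid synthesis genes 3 rose and 3 fell in wildtype, and 2 rose and 4 fell in mutant cells. Their median log2 change was 0.06 in wildtype and 0.02 in mutant cells, near the 0.05 of all genes. Lpin1, a phosphatidate phosphatase, rose (log2 1.40 and 0.95), while its relative Lpin3 (log2 -1.002 and -0.87) and Agpat1, an acyltransferase (log2 -0.63 and -0.62), fell. In the comparisons of genotypes 0 genes of these 6 lists passed in edgeR.

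**Figure D5:**
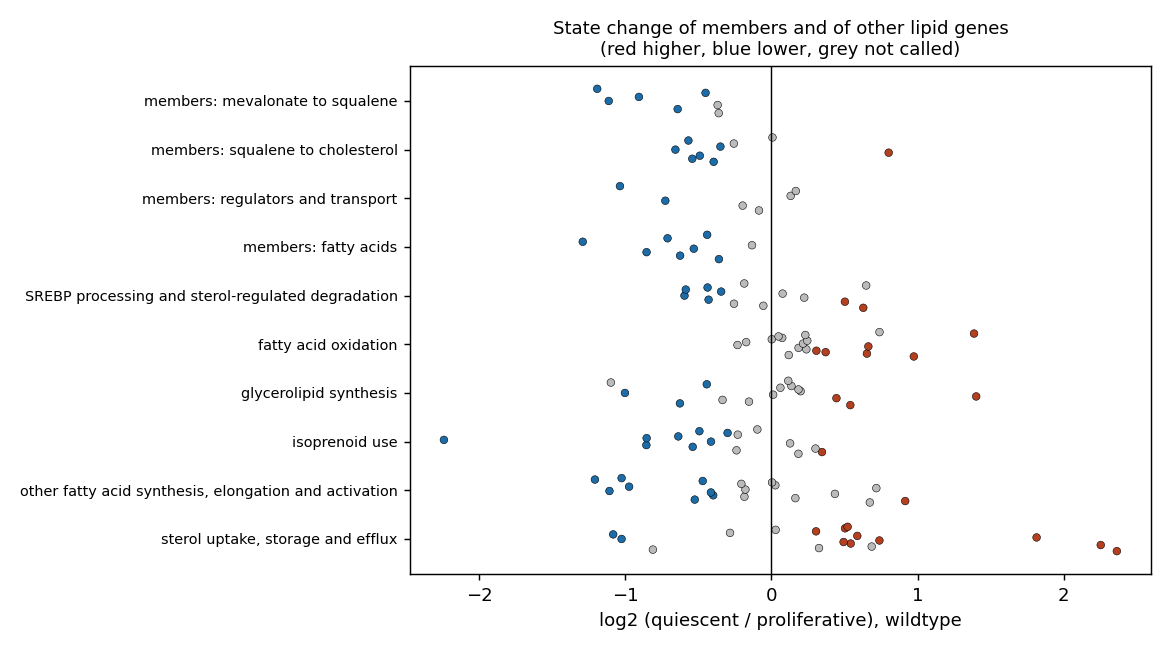
Log2 of quiescent over day 2 in wildtype cells for each tested member, by role, and for each tested gene of the 6 other lipid lists (red called higher, blue called lower, grey not called, vertical offsets only for display). The members' points lie mostly to the left of 0, and the sterol uptake, storage and efflux genes reach 2.36 on the right with Abca1.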

How the data were processed

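The authors deposited raw read counts, as whole numbers, for 23100 genes in 16 libraries. HTSeq 0.6.1p1, TopHat2 2.1.1, Bowtie2 2.2.9, bcl2fastq 2.18 and build mm9 are named in the submitters' processing notes. Per the labels' protocols, stranded libraries were made from DNase-treated total RNA. For overlapping genes the counts are uncertain, as the strand setting and annotation are not given in the sources used. The table had 0 columns of other samples and 0 rows without a gene name.

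Counts of days 8, 10 and 12 of a line were summed, giving 8 libraries in 4 groups, and tested by quasi-likelihood in edgeR 4.0.16 under R 4.3.3 (TMM, filterByExpr, robust, 4 residual degrees of freedom, 15740 genes). The fit had no term for the line. Day steps used 15439 genes of the 16 libraries, in 8 groups with 8 residual degrees of freedom, so harvests of the same line entered as if they were independent. P-values were Benjamini-Hochberg adjusted over all genes and called under 0.05. SE is the absolute log2 value over the square root of F. CPM of summed and of single libraries were scaled separately. The libraries of a group were distinct, with a chi-square of 32.4 to 69.6 for each degree of freedom. Nothing says how the lines of a genotype were derived, so p-values measure the spread between these lines.

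On simulated counts the fit recovered 76% of 2-fold changes between states in wildtype, 69% between genotypes at quiescence and 93% between days 8 and 10. Unchanged genes called numbered 4, 13 and 13. The simulation gave all genes the same fixed spread, not estimated from these data, and had no line effect. Recovery of changes under 2-fold was not simulated, so these shares do not give the power of the real comparisons.

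Every member was given test values for the states. For other comparisons the members called and otherwise the 4 with the smallest p were named, and from each other list up to 3 genes with the smallest p in the wildtype state comparison. The members and lists were chosen with earlier results of these data known. Replicate numbers pair states and days by design, since a number within a genotype is 1 line. Deviations of same-numbered libraries correlated at 0.234 and 0.242 between states, and at 0.192 and 0.109 between genotypes. Exon lengths and overlaps are from GENCODE models of build GRCm38, and promoters from RefSeq. Alternatives were RLE scaling, DESeq2 1.42.0, other filters, each line left out, a replicate block, the libraries of a comparison alone and unsummed libraries.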

Additional observations from a re-analysis of the deposited data

Results flagged for a closer look

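For 4 members the difference in state change between the replicate 2 lines (letter L) and the replicate 1 lines (letter I) passed. The test was edgeR's test of the difference itself with 2 residual degrees of freedom. This test was added after the values of each line had been seen. The log2 difference of L minus I was -0.65 for Srebf2 (SE 0.10, adjusted p = 0.0351), -0.53 for Fads2 (SE 0.11, adjusted p = 0.0459), -0.53 for Fasn (SE 0.11, adjusted p = 0.0430) and 0.46 for Idi1 (SE 0.10, adjusted p = 0.0465). Both genotypes showed the same direction for each of the 4. The test pools both genotypes and so favours genes of this kind, and the shared direction is no separate support. For 14 members the unadjusted p was under 0.05, as it was for 23% of all genes, and 21 of 30 values were negative, against 51.4% of all genes. Scap (-0.44, SE 0.10, adjusted p = 0.0573) and Insig2 (0.45, SE 0.11, adjusted p = 0.0619) were next in order.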

How the results depend on the processing

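Leaving out each line in turn gave 11 to 22 members called lower and 0 to 1 called higher in wildtype cells between states (4185 to 7755 of all genes), and 12 to 18 lower and 0 to 1 higher in mutant cells. The call of Tm7sf2 as higher in mutant cells came with the replicate block (1 member higher, 18 lower), without mutant replicate 2 and with the 16 libraries unsummed (1 higher, 22 lower). The block, with the line or the number as a term, moved all genes from 10 to 114 between days 8 and 10 and from 64 to 141 between days 10 and 12. Beyond Tm7sf2 and Fads1 in mutant cells it changed no other member's call. DESeq2 called 3 genes between genotypes at day 2, 1 for the difference of the state change, 299 between letters, 259 between days 8 and 10 (3 members, lower) and 405 between days 10 and 12. Without 1 line there were 1 to 3 genes between genotypes at day 2, 1 to 4 at quiescence, 0 to 42 between days 8 and 10, and 0 to 443 between days 10 and 12. The libraries of a comparison alone gave 0 genes for genotype at quiescence and for both day steps. Letters gave 58 genes with no filter on low counts and 10 with a CPM of at least 1 in 2 libraries. The added test of the state change between letters gave 1320 genes in DESeq2 (3 members higher, 6 lower) and 884 with unsummed libraries, in which Idi1 did not pass (log2 0.50, adjusted p = 0.112). Signs turned for members that were not called. Dhcr7 in wildtype went from 0.0069 to -0.0014 with RLE scaling and -0.0011 in DESeq2, and in mutant cells from -0.0013 to 0.021 with the CPM filter, 0.0089 with the replicate block and 0.0076 with the comparison's libraries alone. Without 1 line the log2 values in wildtype cells ran from -0.40 to 0.40 for Dhcr7, -0.25 to 0.065 for Srebf1, -0.48 to 0.081 for Srebf2, -0.17 to 0.39 for Insig2 and -0.038 to 0.35 for Scap. In mutant cells they ran from -0.18 to 0.19 for Dhcr7, -0.23 to 0.087 for Srebf1, -0.55 to 0.21 for Srebf2, -0.063 to 0.27 for Insig2, -0.19 to 0.33 for Scap and -0.52 to 0.17 for Mvd. Causes were not tested. Counting error was not small beside the spread of 2 lines for every tested member. For Pmvk in wildtype cells at day 2 the lines stood at 25.6 and 25.8 CPM, from 873 and 1538 counts. The counts of Hmgcs1 allow no comparison.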

Other observations

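The lines reached their lowest levels at different late harvests. In wildtype replicate 1, 24 of the 30 members were lowest at day 12 and 2 at day 10. In wildtype replicate 2, 24 were lowest at day 10 and 2 at day 12, and 5 members were lower at day 12 than at day 10. In mutant replicates 1 and 2, 19 and 17 members were lowest at day 12. Insig1 stood at 102, 66.0, 70.3 and 53.4 CPM at days 2, 8, 10 and 12 in wildtype replicate 1 and at 101, 70.8, 46.7 and 65.5 CPM in wildtype replicate 2. Lss stood at 51.3, 50.9, 43.5 and 32.8 CPM and 60.3, 44.0, 27.9 and 33.2 CPM in these lines. The summed level of the members at day 10 was 76.2% of day 2 in wildtype replicate 1, 57.7% in wildtype replicate 2, 72.4% in mutant replicate 1 and 63.3% in mutant replicate 2. Each of these is 1 library, no test was made, and the counts were not made over all genes. The examples were chosen after their values were seen.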
